A study of Mus musculus with 12 samples.

Results

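The complement and coagulation genes followed here are 33 genes whose proteins circulate in plasma and take part in complement activation, clotting, the contact system or fibrinolysis. They were chosen by name from a list of 36 symbols, as the probe sets to which the platform annotation gives one of these symbols, and each had 1 probe set among the 21212 of the array. C3, Cfd and Cpb2 had no probe set under these symbols and were not analysed here. Liver RNA was measured on Affymetrix whole-transcript arrays, 1 per mouse, in 3 KK males, 3 KK females, 3 C57BL/6J males and 3 C57BL/6J females. KK (KK/HIJ in one label and KK/J in another) is an inbred line that tends to become obese and insulin resistant, and C57BL/6J is the usual laboratory strain. All mice were 8 weeks old and on chow, were housed alone for 3 days and went 4 hours without food before the large lobe was taken after perfusion with PBS. No drug, diet or engineered allele separated the groups, so strain and sex are the only labelled differences, and each strain is a single inbred genotype. Sex was read from the letter M or F in the sample titles.

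Most complement and clotting proteins of plasma are made by hepatocytes. Complement is started by antibodies, by lectins that bind microbial sugars, or by the alternative pathway, and these routes meet in proteases that split C3 and then C5. The fragment C5b then binds C6, C7, C8 and many copies of C9 to form the membrane attack complex, a pore in the target membrane. Clotting is a chain of proteases that ends in thrombin, which turns fibrinogen into fibrin, while protein C limits the chain and plasmin dissolves the clot.

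The values are log2 expression values as deposited, on which a difference of 1 is a doubling. A level can be compared between arrays for a gene, but not between genes. Each of the 33 genes rested on 1 probe set. Whether the KK sequence differs under its probes, which could alter the signal without a change in RNA, was not tested. The arrays had medians of 5.9 to 6.03 and correlated at 0.992 to 0.996 within groups and at 0.975 to 0.993 between groups. Their interquartile ranges were 2.64 to 2.87 in KK males, 2.76 to 2.97 in KK females, 2.75 to 2.91 in C57BL/6J males and 2.74 to 2.97 in C57BL/6J females. The lowest value of the 33 genes on any array was 7.24, while the 3 measured Y-linked genes lay between 3.79 and 4.66 in the female arrays. Detection calls could not be examined, so these values set no detection limit. All 8 hepatocyte markers, albumin among them, lay between 12.08 and 14.02. The median spread between mice of a group (pooled SD) was 0.097 for the 33 genes and 0.118 for all probe sets. In bulk liver, fewer cells of a type and less RNA per cell cannot be told apart. Differences were tested with limma over all probe sets, and a gene was called at a Benjamini-Hochberg adjusted p under 0.05.

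Of the 33 genes, 13 were called in at least 1 of 6 comparisons, 8 of 16 complement genes and 5 of 17 coagulation genes, where 13.6% of all probe sets were called in at least 1. In KK against C57BL/6J females, 3 genes were higher (C6, C9 and C8b) and 3 lower (Hc, Masp2 and F13b), where 3.18% of all probe sets were called higher, 3.31% lower and 6.5% either way. In KK against C57BL/6J males, the same 3 genes, Hc, Masp2 and F13b, were lower (background 3.06%) and limma called 0 higher (background 2.08%, and 5.15% either way), with 14 of the 33 at an unadjusted p under 0.05 in either direction (16.9% of all probe sets). Over both sexes, Mbl1, C6, C8b and C9 were higher (background 5.42%) and Masp2, Hc, F7, F5, F11, F13b and Proc lower (background 6.31%, and 11.7% either way). In male against female KK livers, C6 was higher (background 0.698%) and Mbl2, Cfp and F7 lower (background 1.47%, and 2.17% either way). In male against female C57BL/6J livers, C6, C8b and C9 were higher (background 0.358%) and F7 lower (background 0.674%, and 1.03% either way). The interaction (the KK minus C57BL/6J difference of males less the same difference of females) was called for 0 of the 33 genes by limma (background 0.066% higher, 0.0754% lower and 0.141% either way), and 4 of the 33 had an unadjusted p under 0.05 (6.35% of all probe sets).

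**Figure D1:**
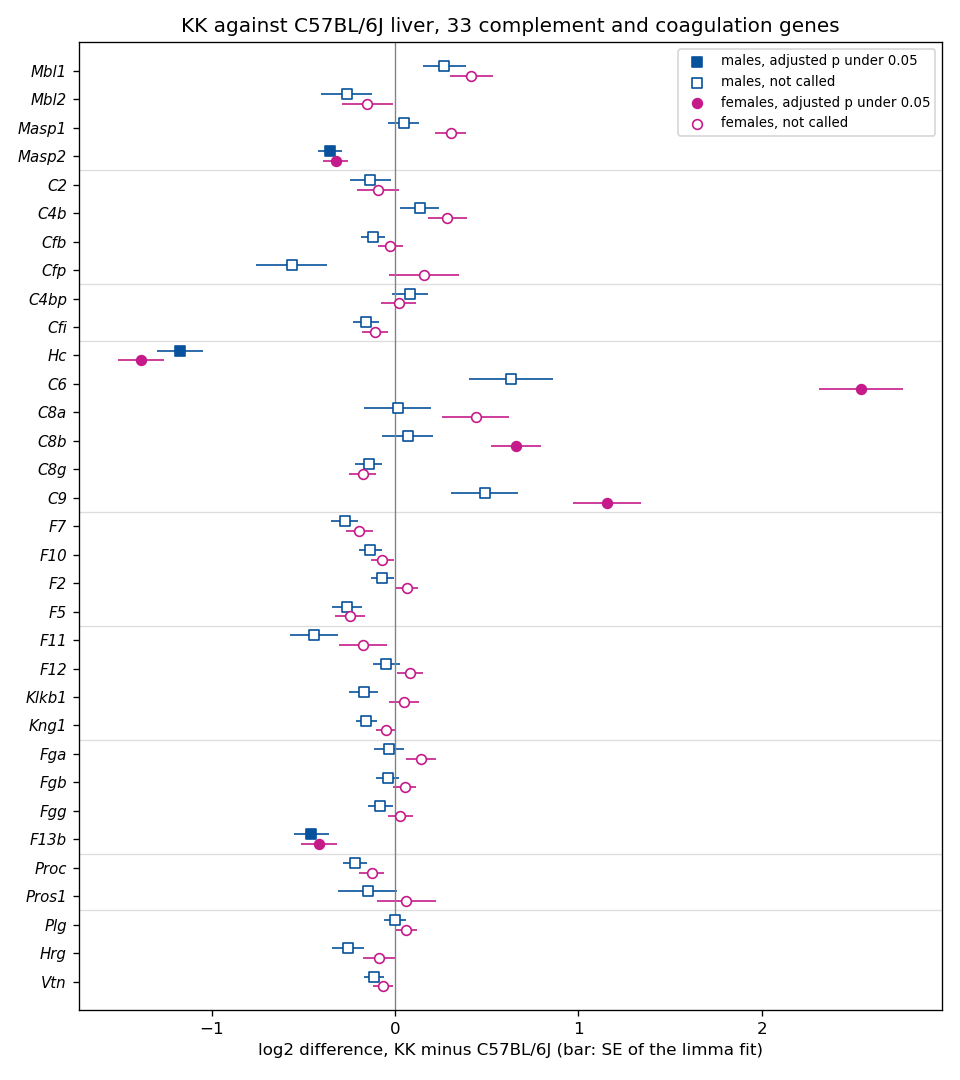
Strain difference of each of the 33 genes on the log2 scale, KK minus C57BL/6J, in males (squares) and females (circles), grouped by role from the lectin pathway at the top to fibrinolysis at the bottom. Bars are SEs of the limma fit and filled symbols have an adjusted p under 0.05. C6 in females, at 2.54, is the farthest to the right, and Hc lies left of 0 in both sexes, at -1.17 in males and -1.39 in females.

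The terminal pathway held the largest differences. C6 encodes the protein that joins C5b and begins the membrane attack complex. C6 had log2 values of 11.26, 11.07 and 11.52 in KK males and of 10.09, 9.84 and 10.60 in KK females. In C57BL/6J it had values of 10.31, 10.64 and 10.99 in males and of 7.93, 7.24 and 7.74 in females. The 3 C57BL/6J females were thus the lowest of the 12 mice, and KK females overlapped C57BL/6J males.

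C6 was higher in KK females than in C57BL/6J females by 2.54 log2 (SE 0.23, 5.81-fold, adjusted p = 3.58e-05). In males all 3 KK values lay above the C57BL/6J values, but the difference of 0.63 (SE 0.23) was not called (adjusted p = 0.163). C6 was higher in males than in females of C57BL/6J by 3.01 (SE 0.23, 8.05-fold, adjusted p = 2.37e-05). In KK the male minus female difference was 1.10 (SE 0.23, 2.15-fold, adjusted p = 0.0293), and this call was lost without KK female 1, KK female 2 or any of the KK males, at an adjusted p between 0.0622 and 0.129. The interaction of strain and sex was -1.91 (SE 0.32), just outside the threshold at an adjusted p = 0.0516. That p moved between 0.0082 and 0.157 over the alternatives, and it passed in 6 of them: without KK female 2 (0.036), without C57BL/6J male 1 (0.043), after quantile (0.0353) or loess normalization (0.0273), with only the brighter probe sets (0.0214) and with the replicate number as a block (0.0082).

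C9 encodes the subunit that polymerises into the pore. C9 had log2 values of 11.81, 11.81 and 11.91 in KK males and of 11.16, 11.09 and 11.55 in KK females. In C57BL/6J it had values of 11.22, 11.36 and 11.48 in males and of 10.53, 9.65 and 10.15 in females. C57BL/6J females were again the lowest of all 12 mice, without overlap with the other groups. C9 was higher in KK than in C57BL/6J females by 1.16 (SE 0.18, 2.23-fold, adjusted p = 0.00233), and higher in C57BL/6J males than in C57BL/6J females by 1.24 (SE 0.18, 2.37-fold, adjusted p = 0.00442). In males the strain difference was 0.49 (adjusted p = 0.183), and between the sexes of KK the difference was 0.58 (adjusted p = 0.15); the groups did not overlap in either, and neither was called. The interaction was -0.67 (SE 0.26, adjusted p = 0.722).

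C8 is a trimer of alpha, beta and gamma chains, encoded by C8a, C8b and C8g. C8b had log2 values of 12.10, 12.09 and 12.12 in KK males, 11.98, 11.96 and 12.12 in KK females, 11.75, 12.13 and 12.23 in C57BL/6J males and 11.57, 11.06 and 11.46 in C57BL/6J females. C8b was higher in KK than in C57BL/6J females by 0.66 (SE 0.14, adjusted p = 0.013; 0.0501 without KK female 3). It was higher in C57BL/6J males than females by 0.68 (SE 0.14, adjusted p = 0.0385). The call between the sexes held without C57BL/6J female 1 or C57BL/6J male 1 and was lost without each of the other 10 arrays, at an adjusted p of up to 0.177. Over both sexes C8b was higher in KK by 0.36 (adjusted p = 0.0295), a call lost without KK female 3, any of the KK males or C57BL/6J male 1, at up to 0.0679. C8a, its neighbour on chromosome 4, had group means of 11.61 in KK males, 11.20 in KK females, 11.60 in C57BL/6J males and 10.76 in C57BL/6J females. It was not called in any comparison, with a male minus female difference of 0.84 (SE 0.18, adjusted p = 0.057) in C57BL/6J. C8g, on chromosome 2, varied between 11.57 and 11.92 over the 12 mice and was not called in any comparison either.

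The C57BL/6J females enter both the strain difference in females and the sex difference in C57BL/6J, so these differences of C6, C9 and C8b share their lower group and are not independent of each other. For C6 they were 2.54 and 3.01, for C9 1.16 and 1.24, and for C8b 0.66 and 0.68. Erythroid markers, of which 2 of 5 were measured, were also lowest in the C57BL/6J females. Their summed linear level ran from 1791 to 2147 in KK males, 1200 to 1394 in KK females, 1037 to 1314 in C57BL/6J males and 350.2 to 591 in C57BL/6J females. Alas2, the first enzyme of heme synthesis in red cell precursors, was the marker called, and the other, the beta globin gene Hbb-bt, was not called in any comparison. The part of these cells in the terminal pathway differences was not tested.

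**Figure D2:**
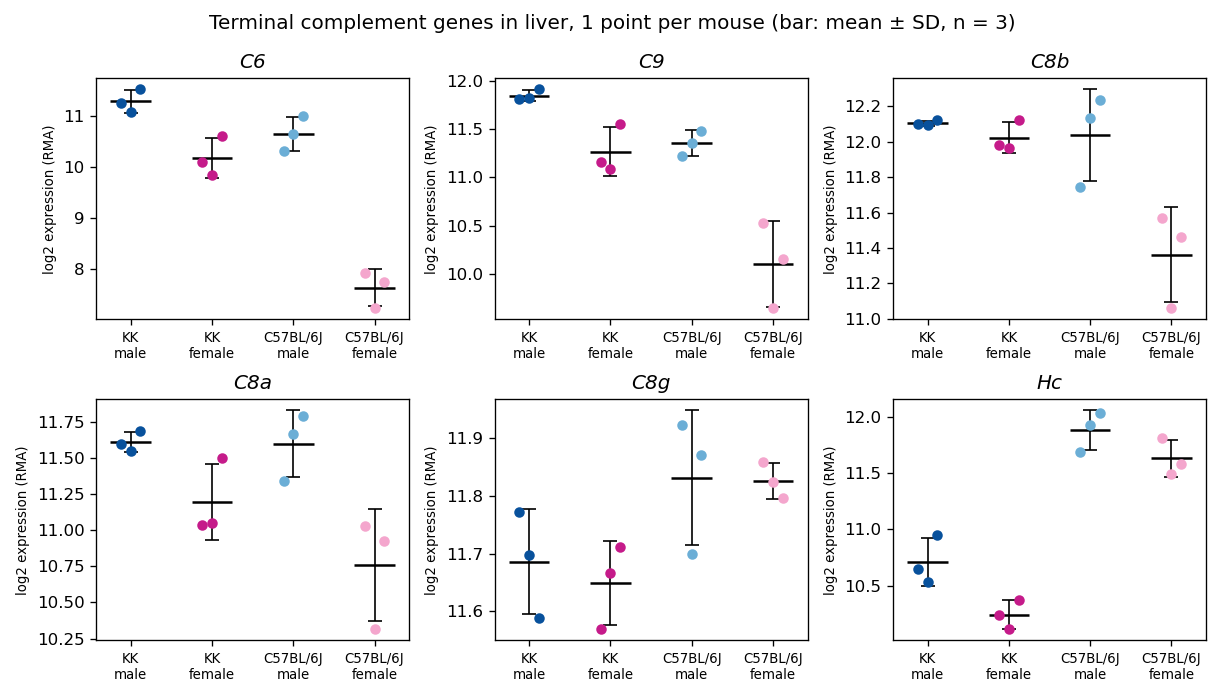
Log2 expression of 6 terminal complement genes in each mouse, in KK males, KK females, C57BL/6J males and C57BL/6J females; bars are the mean ± SD of 3 mice. For C6, C9 and C8b the C57BL/6J females lie below every other mouse (7.24 to 7.93 for C6), while for Hc both KK groups lie below both C57BL/6J groups.

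Hc encodes C5, whose larger fragment starts the attack complex and whose smaller one draws in leukocytes. Several inbred mouse strains are known to lack C5 through a small deletion in Hc, and the Hc allele of these KK mice was not analysed here. Hc had log2 values of 10.64, 10.53 and 10.95 in KK males against 11.69, 11.93 and 12.03 in C57BL/6J males. In females it had values of 10.24, 10.11 and 10.38 in KK against 11.81, 11.49 and 11.58 in C57BL/6J. All 6 KK mice lay below all 6 C57BL/6J mice. Hc was lower in KK by -1.17 in males (SE 0.13, 2.25-fold, adjusted p = 0.000166) and by -1.39 in females (SE 0.13, 2.61-fold, adjusted p = 3.91e-05). These calls held in every alternative run. Male minus female, Hc differed by 0.47 in KK (adjusted p = 0.0951) and by 0.25 in C57BL/6J (adjusted p = 0.688).

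Within each group the same mouse was highest for C6, C9, C8a, C8b and Hc alike. These were KK male 3, KK female 3, C57BL/6J male 3 and C57BL/6J female 1. C57BL/6J male 1 and C57BL/6J female 2 were the lowest of their groups for all 5 genes. After quantile normalization this stayed so in KK females, C57BL/6J males and C57BL/6J females, but in KK males 3 of the 5 genes were highest in KK male 3 and 2 in KK male 2. The pattern was picked out after the values were seen and was given no test.

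The sequences before the start sites of the 4 called terminal pathway genes are shown because in KK against C57BL/6J females C6, C9 and C8b were called higher and Hc lower. Promoter entries were found for 25 of the 33 genes in the RefSeq table of GRCm38.p6, which is the C57BL/6J genome. Each sequence is the 250 bases before an annotated start, 5′ to 3′ along the gene's strand. Capitals mark matches, on either strand, to simplified motifs of liver transcription factors: TTCNNNGAA for STAT5, GTTAAT for an HNF1 half-site, TTGCNNAA for C/EBP, ATCAAT for HNF6 and TGTTTNC for FOXA. No match overlapped another in these windows. The intervals are chr15:4726960-4727209 for C6, chr15:6445096-6445345 for C9 and chr4:104766067-104766316 for C8b, all on the plus strand, and chr2:35061413-35061662 on the minus strand for Hc.
C6: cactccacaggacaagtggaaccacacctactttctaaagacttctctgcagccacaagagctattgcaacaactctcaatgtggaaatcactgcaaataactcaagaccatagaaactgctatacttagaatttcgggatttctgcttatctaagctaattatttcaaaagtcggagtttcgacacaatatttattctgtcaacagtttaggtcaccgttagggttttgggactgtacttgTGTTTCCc
C9: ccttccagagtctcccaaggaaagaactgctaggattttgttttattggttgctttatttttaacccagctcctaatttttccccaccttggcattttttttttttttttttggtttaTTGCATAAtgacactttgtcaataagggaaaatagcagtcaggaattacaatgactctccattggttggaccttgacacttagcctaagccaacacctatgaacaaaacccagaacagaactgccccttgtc
C8b: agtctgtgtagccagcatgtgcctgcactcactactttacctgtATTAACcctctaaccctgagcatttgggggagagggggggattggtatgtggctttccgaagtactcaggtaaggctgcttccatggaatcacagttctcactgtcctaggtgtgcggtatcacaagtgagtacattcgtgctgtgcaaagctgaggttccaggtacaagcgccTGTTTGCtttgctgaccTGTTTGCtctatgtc
Hc: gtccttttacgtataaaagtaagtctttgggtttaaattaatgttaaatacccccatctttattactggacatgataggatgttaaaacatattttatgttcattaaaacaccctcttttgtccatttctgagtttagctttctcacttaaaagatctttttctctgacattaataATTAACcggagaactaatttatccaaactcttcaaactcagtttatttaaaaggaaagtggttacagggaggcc
The C6 window held 1 match, to the FOXA motif, beginning 8 bases before the start. C9 held 1 C/EBP match, 132 bases before the start. C8b held 2 FOXA matches, beginning 32 and 15 bases before the start, and 1 HNF1 half-site at 206. Hc held 1 HNF1 half-site at 74. The letters for STAT5 and HNF6 were not in these 4 windows. These motif letters were chosen after the sequences had been seen: a first set of 6 forms, with the full palindromic HNF1 motif, TTGCGCAA for C/EBP, TGTTTAC for FOXA, ATCGAT as a second form for HNF6 and the same STAT5 and ATCAAT letters, matched 0 of the 4 windows, and HNF1, C/EBP and FOXA were then loosened. The matches in capitals are therefore a description of the letters and show nothing about binding. Of all 32851 promoter entries of this length, 17.8% held the FOXA motif, 9.56% the C/EBP motif, 6.43% the HNF1 half-site, 7.02% the STAT5 motif and 6.72% the HNF6 motif. Of the 26 entries of the 33 genes, 9, 6, 9, 5 and 3 held them in that order. The fibrinogen genes Fga and Fgb, which were not called in any comparison, each held the FOXA, C/EBP, HNF1 and STAT5 letters.

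The lectin pathway begins with the mannose-binding lectins Mbl1 and Mbl2 and their proteases Masp1 and Masp2. Masp2 encodes the protease that cleaves C4 and C2. It had log2 values of 10.88, 10.75 and 10.73 in KK males against 11.15, 11.05 and 11.23 in C57BL/6J males, and of 10.80, 10.78 and 10.76 in KK females against 11.12, 11.05 and 11.14 in C57BL/6J females. All KK mice lay below all C57BL/6J mice, and the sexes lay together. Masp2 was lower in KK by -0.36 in males (SE 0.07, adjusted p = 0.00879) and by -0.32 in females (SE 0.07, adjusted p = 0.013; 0.0508 without C57BL/6J female 3).

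Mbl2 was called in 1 comparison, between the sexes of KK. It had log2 values of 11.09, 10.80 and 11.40 in KK males against 12.02, 11.80 and 11.67 in KK females, and of 11.34, 11.49 and 11.25 in C57BL/6J males against 12.12, 11.96 and 11.87 in C57BL/6J females. Males lay below females in both strains without overlap. Male minus female, Mbl2 differed by -0.73 in KK (SE 0.14, adjusted p = 0.019) and by -0.62 in C57BL/6J (SE 0.14, adjusted p = 0.0636), and the interaction was -0.11 (SE 0.20, adjusted p = 0.945). The call in KK was lost without KK female 1, KK male 1 or KK male 2, at an adjusted p of 0.0659 to 0.0983.

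Mbl1 had log2 values of 9.63, 9.48 and 9.85 in KK males and of 9.75, 9.78 and 9.86 in KK females, against 9.19, 9.47 and 9.49 in C57BL/6J males and 9.50, 9.16 and 9.48 in C57BL/6J females. The KK and C57BL/6J values overlapped narrowly. Over both sexes Mbl1 exceeded its C57BL/6J level in KK by 0.34 (SE 0.08, adjusted p = 0.0185), and within sexes it was not called, at 0.27 in males (adjusted p = 0.273) and 0.42 in females (adjusted p = 0.0605). Masp1, which encodes the protease that activates Masp2, differed by 0.05 in males and 0.30 in females (adjusted p = 0.0519) and was not called in any comparison.

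C2 and C4b encode parts of the classical and lectin C3 convertase, and Cfb the protease part of the alternative one. None of these was called in any of the 6 comparisons. Their strain differences lay between -0.14 and 0.28 over both sexes' comparisons, with C4b at 0.13 in males and 0.28 in females. C4a, a near-identical copy of C4b on chromosome 17, was called higher in KK, by 0.85 in males (adjusted p = 0.0315) and 0.98 in females (adjusted p = 0.013), and whether the probes read C4a or C4b is uncertain. C4bp and Cfi, which encode inhibitors that break down the convertases, were not called either. Cfi lay lower in males than in females of each strain without overlap, by -0.26 in KK (adjusted p = 0.0975) and -0.21 in C57BL/6J (adjusted p = 0.346).

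Cfp, an X-linked gene, encodes properdin, which stabilises the alternative convertase and is made mainly by myeloid cells. Cfp had log2 values of 7.50, 7.24 and 7.79 in KK males against 9.22, 8.77 and 8.48 in KK females. In C57BL/6J it had values of 7.79, 8.40 and 8.04 in males against 8.65, 8.61 and 8.74 in females. Males lay below females in each strain. The male minus female difference was -1.31 in KK (SE 0.19, 2.48-fold, adjusted p = 0.00409), a call that held in every alternative run, and -0.59 in C57BL/6J (SE 0.19, adjusted p = 0.302). The difference of these differences was not called (-0.72, SE 0.27, adjusted p = 0.711).

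Markers of Kupffer cells and macrophages, like Cfp, lay lower in males than in females of each strain. Of 10 measured markers, 9 were called lower in male than in female KK livers (background 1.47%), with a median difference of -1.05. In C57BL/6J all 10 were below 0, with a median of -0.36, but limma called 0 (2 at an unadjusted p under 0.05, where 8.17% of all probe sets were). Their summed linear level ran from 2142 to 2885 in KK males against 4371 to 7497 in KK females, and from 3114 to 4727 in C57BL/6J males against 4459 to 5087 in C57BL/6J females. KK female 1 had the highest sum and the highest Cfp value, and without it the Cfp difference in KK was called as well. All 10 markers were also below 0 in KK against C57BL/6J males, with a median of -0.66, and Clec4f and Csf1r were called lower. There Cfp differed by -0.57 (SE 0.19, adjusted p = 0.135), with all KK values below the C57BL/6J values, and was not called. In KK against C57BL/6J females, 5 of the 10 markers were above 0 and 5 below, with a median of 0.002. Marco was called lower there (-0.81, adjusted p = 0.0391, background 3.31%), and Cfp differed by 0.16 (adjusted p = 0.813). The lowest value of any of the 10 markers was 5.62, for Marco in KK male 3, above the Y-linked genes in females and below the median of that array (5.92). Between the sexes of KK, the scavenger receptor gene Marco was the marker that was not called, at -0.19. Sinusoidal endothelial markers summed to 3801 to 4236 in KK males against 4335 to 5438 in KK females, and stellate cell markers to 1462 to 2067 against 2415 to 2915. In C57BL/6J the endothelial sums were 3836 to 4258 in males against 4733 to 5087 in females, also without overlap. The stellate cell sums there were 1696 to 2359 in males against 2086 to 3026 in females and overlapped. Such sums weigh the brightest markers most. Of the 10 endothelial markers, 1 (Stab2) was called lower in KK males. Of the 10 stellate cell markers limma called 0 between the KK sexes, with 7 below 0, 3 above 0 and 5 at an unadjusted p under 0.05. The part of these cells in the sex differences of Cfp, Mbl2 and F7 was not tested.

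**Figure D3:**
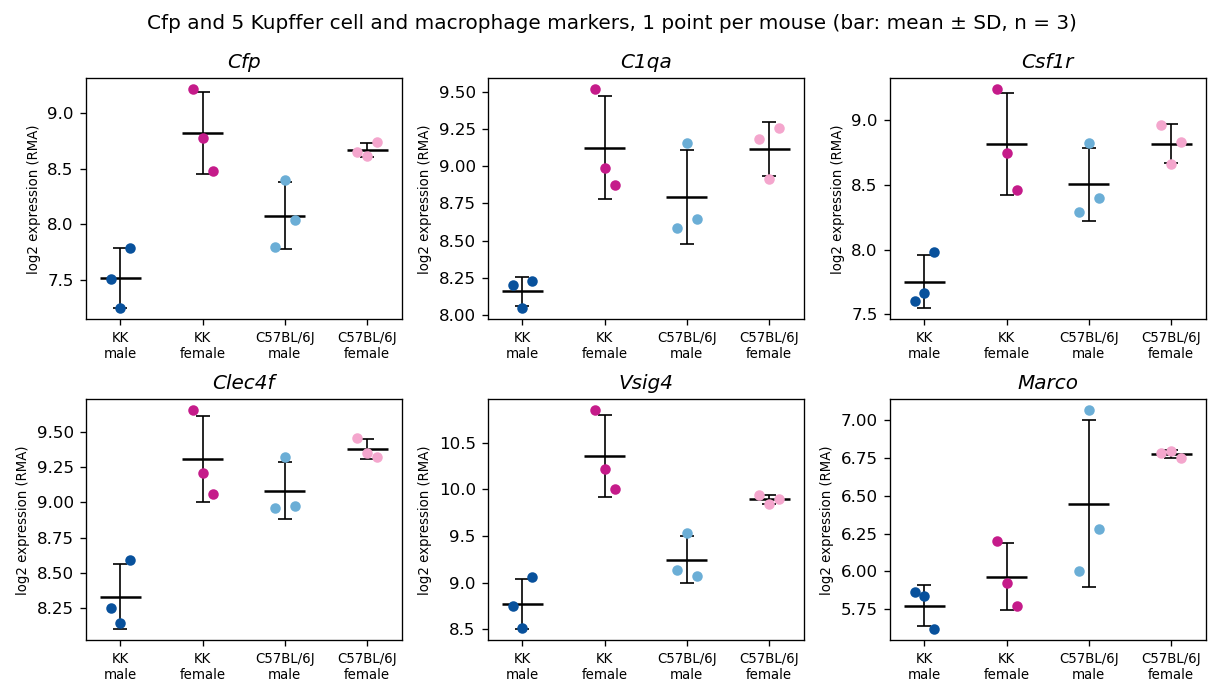
Log2 expression of Cfp and of the Kupffer cell and macrophage markers C1qa, Csf1r, Clec4f, Vsig4 and Marco in each mouse, by group; bars are the mean ± SD of 3 mice. KK males have the lowest group mean for Cfp, C1qa, Csf1r, Clec4f and Vsig4, and for Marco both KK means lie below both C57BL/6J means.

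In the clotting chain, F7 and F10 are neighbouring genes on chromosome 8 that encode successive proteases of the tissue factor route. F7 had log2 values of 9.83, 9.76 and 9.87 in KK males against 10.29, 10.17 and 10.30 in KK females. In C57BL/6J it had values of 10.16, 9.97 and 10.14 in males against 10.53, 10.42 and 10.40 in females. Males lay below females in each strain, and KK below C57BL/6J within each sex, without overlap.

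F7 was lower in males by -0.43 in KK (SE 0.07, adjusted p = 0.0103) and by -0.35 in C57BL/6J (SE 0.07, adjusted p = 0.0413). The first call was lost without KK female 1 (0.0544) or KK male 2 (0.0505), and the second without any array but KK female 2, at an adjusted p of up to 0.162. Over both sexes F7 was lower in KK by -0.24 (SE 0.05, adjusted p = 0.0102), a call kept in every alternative run. F10 was not called in any comparison and stayed between 11.31 and 11.66 in the 12 mice. F2, which encodes prothrombin, stayed between 12.02 and 12.24 and was not called.

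F5, the cofactor of the enzyme that activates prothrombin, had log2 values of 10.76, 10.71 and 10.71 in KK males and 10.86, 10.77 and 10.75 in KK females, against 10.93, 10.93 and 11.12 in C57BL/6J males and 11.05, 10.90 and 11.18 in C57BL/6J females. All 6 KK mice lay below all 6 C57BL/6J mice. Over both sexes the difference was -0.25 (SE 0.06, adjusted p = 0.0127), and within the sexes it was -0.26 in males and -0.25 in females and was not called.

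The contact system starts clotting on charged surfaces and releases bradykinin from kininogen. F11 had log2 values of 9.55, 9.49 and 9.62 in KK males and 9.59, 9.42 and 9.71 in KK females, against 9.90, 9.74 and 10.36 in C57BL/6J males and 9.73, 9.74 and 9.77 in C57BL/6J females. All KK values lay below all C57BL/6J values, by a narrow margin in females. The difference of -0.31 over both sexes (SE 0.09, adjusted p = 0.0486) remained called without KK female 3, C57BL/6J male 2 or C57BL/6J male 3 and was lost without each of the other 9 arrays, at up to 0.11. F12, Klkb1 (plasma prekallikrein) and Kng1 (kininogen) were not called in any comparison, with group differences between -0.21 and 0.14. Kng2, a close copy of Kng1, was called lower in KK, by -0.53 in males (adjusted p = 0.00344) and -0.51 in females (adjusted p = 0.00405), and reads of Kng1 and Kng2 probes are uncertain as to the gene.

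**Figure D4:**
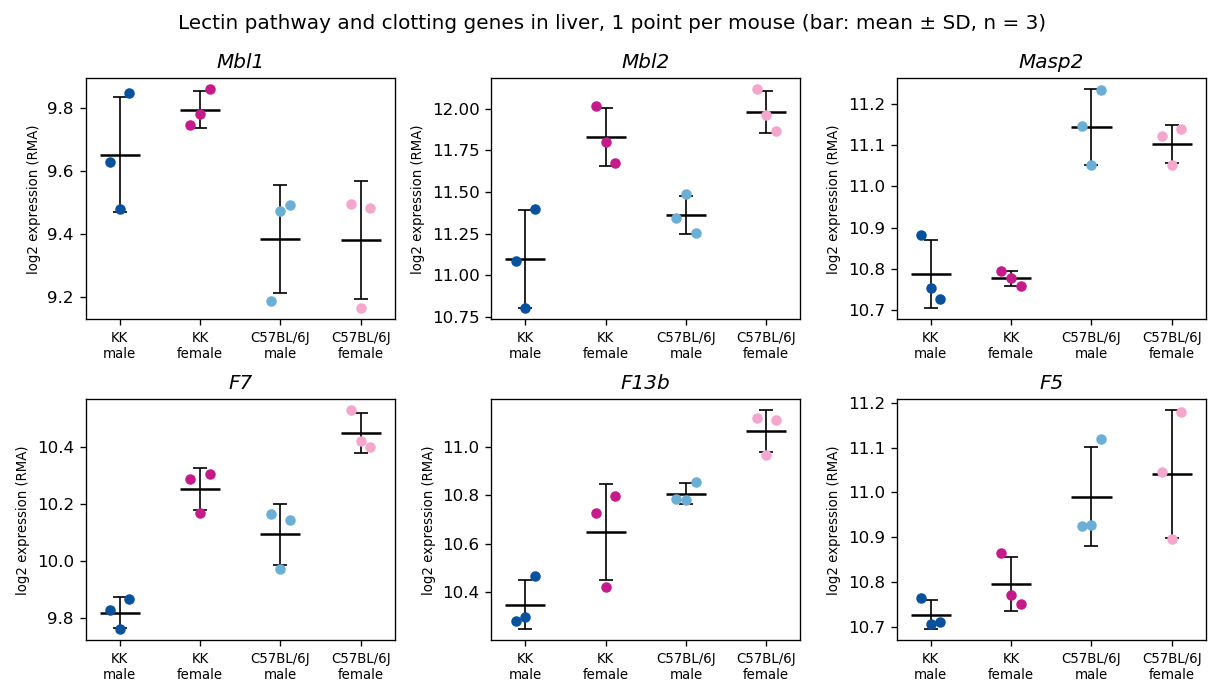
Log2 expression of Mbl1, Mbl2, Masp2, F7, F13b and F5 in each mouse, by group; bars are the mean ± SD of 3 mice. Masp2 and F5 separate all KK from all C57BL/6J mice, while Mbl2 separates males from females within each strain.

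Among the genes of fibrin formation, F13b was called and the fibrinogen genes were not. F13b encodes the carrier subunit of factor XIII, which cross-links fibrin. F13a1, the gene of the other subunit of factor XIII, was measured and was not called in any comparison. F13b had log2 values of 10.28, 10.30 and 10.47 in KK males against 10.78, 10.78 and 10.86 in C57BL/6J males, and of 10.73, 10.42 and 10.80 in KK females against 11.12, 10.97 and 11.11 in C57BL/6J females. KK lay below C57BL/6J in each sex without overlap. F13b was lower in KK by -0.46 in males (SE 0.10, adjusted p = 0.0153) and by -0.42 in females (SE 0.10, adjusted p = 0.0229). The call in males was lost without KK male 1, KK male 2 or C57BL/6J male 3, and that in females without KK female 2, C57BL/6J female 1 or C57BL/6J female 3, at an adjusted p of up to 0.0811. Over both sexes the difference of -0.44 (adjusted p = 0.00106) kept its call throughout.

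Fga, Fgb and Fgg, which lie close together on chromosome 3 and encode the 3 chains of fibrinogen, were not called in any comparison. Their group means differed by at most 0.22, for Fga between KK males (12.13) and KK females (12.36). Over all 12 mice Fgg varied between 13.18 and 13.46, and Fgb had a range of 0.24.

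Among anticoagulant genes, Proc encodes protein C, which inactivates the clotting cofactors. Proc had log2 values of 10.997, 10.94 and 10.98 in KK males and 11.001, 11.09 and 11.06 in KK females, against 11.09, 11.19 and 11.30 in C57BL/6J males and 11.18, 11.12 and 11.23 in C57BL/6J females. The difference of -0.17 over both sexes (SE 0.05, adjusted p = 0.0313) was not called after quantile (0.0708) or loess normalization (0.0805), nor without 9 of the 12 arrays, all but KK female 2, C57BL/6J male 1 and C57BL/6J female 2. Its cofactor gene Pros1 was not called in any comparison. Nor were Plg (plasminogen), Hrg (histidine-rich glycoprotein) and Vtn (vitronectin), whose group differences lay between -0.28 and 0.06.

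**Figure D5:**
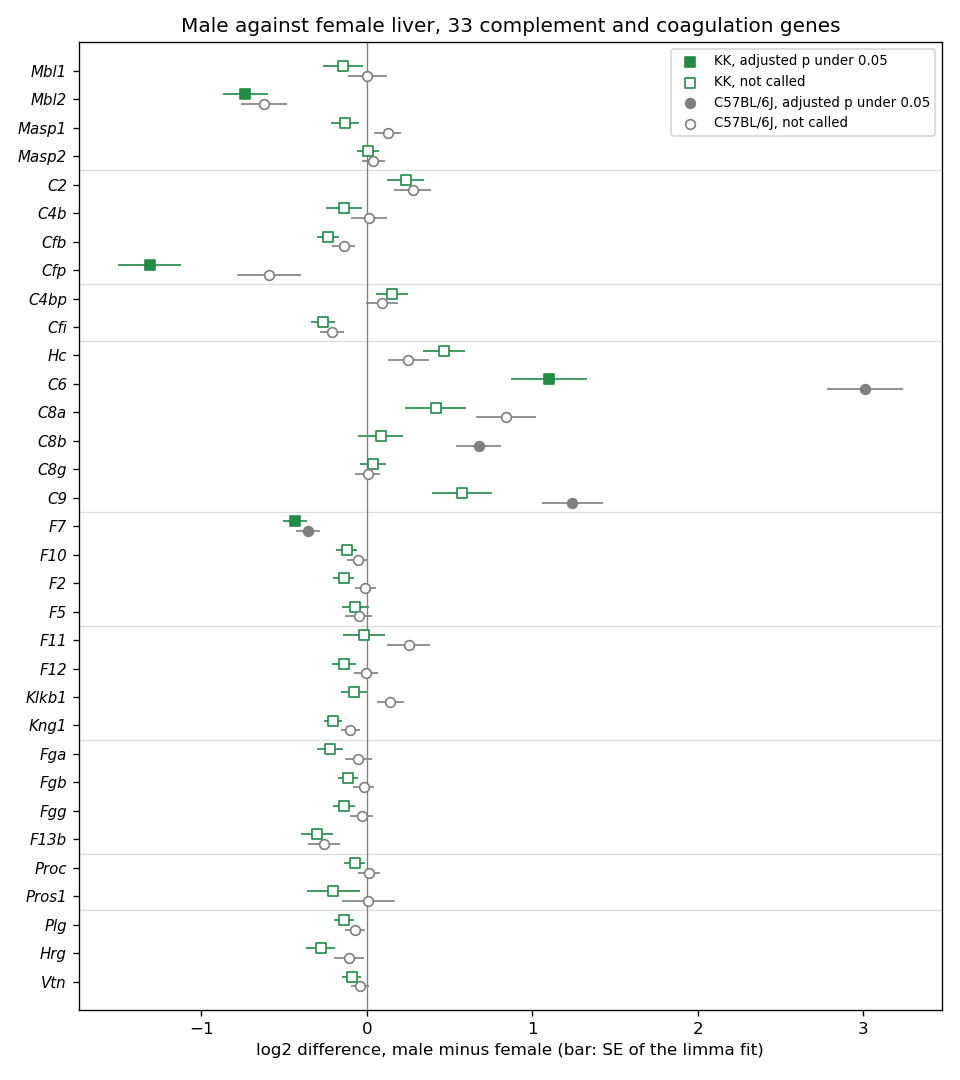
Sex difference of each of the 33 genes on the log2 scale, male minus female, in KK (squares) and C57BL/6J (circles), grouped by role as in the plot of strain differences. Bars are SEs of the limma fit and filled symbols have an adjusted p under 0.05. C6 in C57BL/6J stands at 3.01 and Cfp in KK at -1.31.

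Beside the called genes, the 17 coagulation genes leaned to lower values in KK males. All 17 were below 0 against C57BL/6J males, with a median of -0.15, and all 17 were below 0 against KK females, with a median of -0.14. Both comparisons contain the same 3 KK males, so they are not independent of each other. Over all probe sets, 43.0% were below 0 against C57BL/6J males (median 0.02) and 41.3% against KK females (median 0.03). Among the 2122 probe sets with the highest means, 61.4% were below 0 against C57BL/6J males and 56.2% against KK females. KK males also held the array with the narrowest distribution. After quantile normalization 15 and 16 of the 17 were below 0, with medians of -0.09 and -0.13, and after loess normalization 13 and 16. After quantile normalization 49.8% and 46.5% of the 2122 probe sets with the highest means were below 0, and 47.6% and 46.0% of all probe sets. In KK against C57BL/6J females, 9 of the 17 were below 0, with a median of -0.05.

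Other genes of the same pathways gave the surroundings of these results. Of 34 other complement genes measured out of 37 listed, 3 were higher and 2 lower in KK than in C57BL/6J males, and 2 were higher and 2 lower in KK than in C57BL/6J females, with medians of -0.08 and 0.09. These were 14.7% and 11.8% of the list, where 5.15% and 6.5% of all probe sets were called either way. Cd59b and Cd59a encode membrane inhibitors of the attack complex. Cd59b was lower in KK by -0.78 in males and by -0.78 in females (adjusted p = 0.002 and 0.00151), and Cd59a by -0.48 and -0.43 (adjusted p = 0.0183 and 0.0282), while the copies resemble each other and probes may read both. Cpn1, a subunit of the carboxypeptidase that inactivates anaphylatoxins and kinins, was higher in KK males by 0.36 (adjusted p = 0.0134) and differed by 0.27 in females (adjusted p = 0.0515). In male against female KK livers 5 of the 34 were lower, C1qa, C1qb, C1qc, Vsig4 and Fcna (background 1.47%), and 0 higher (background 0.698%). Of these Vsig4, a C3b receptor of Kupffer cells, differed by -1.58 and the ficolin gene Fcna by -0.79. The first 4 also stand in the marker list above. In C57BL/6J limma called 0 of the 34 between the sexes (background 1.03% either way), and 7 had an unadjusted p under 0.05 (8.17% of all probe sets).

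Of 36 other coagulation, kinin and fibrinolysis genes measured out of 40, 2 were higher and 1 lower in KK than in C57BL/6J males and 2 higher and 4 lower in KK than in C57BL/6J females, with medians of -0.03 and -0.04. These were 8.33% and 16.7% of the list, where 5.15% and 6.5% of all probe sets were called either way. F2r encodes a thrombin receptor. It had log2 values of 8.51, 8.49 and 8.60 in KK males, 8.76, 8.58 and 8.90 in KK females, 8.50, 8.50 and 8.70 in C57BL/6J males and 7.52, 7.40 and 7.75 in C57BL/6J females. As for C6, the C57BL/6J females stood below all other mice. F2r was higher in KK than in C57BL/6J females by 1.19 (SE 0.10, adjusted p = 2.97e-05), and the interaction was called (-1.22, SE 0.15, adjusted p = 0.00486).

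Fgl1, a fibrinogen-like gene of hepatocytes, was lower in males by -1.48 in KK (adjusted p = 0.00233) and -0.999 in C57BL/6J (adjusted p = 0.0324). Anxa2, which binds plasminogen on cell surfaces, was higher in KK males by 0.64 (adjusted p = 0.00373), as was Mcfd2, part of the export receptor for factors V and VIII, by 0.42 (adjusted p = 0.0063). Hgfac, a protease gene related to F12, was lower in KK females by -0.43 (adjusted p = 0.00586).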

How the data were processed

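RNA of 12 livers was hybridised to Affymetrix whole-transcript arrays after labelling from 300 ng of total RNA, per the labels' protocols. The authors deposited a log2 level for each probe set on each array, made with RMA and the affy package, per the submitters' processing notes. The genome build and the versions are not given in the sources used here. No scanner files were used, so detection calls and single probes could not be examined, and the number of arrays limits the precision. RMA is meant to set values on a common scale, which can compress differences of very bright probe sets. The interquartile ranges of the deposited arrays still ran from 2.64 to 2.97.

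Gene symbols came from the platform annotation, and chromosomes, neighbours and promoter sequences from RefSeq tables of GRCm38.p6. All 21212 probe sets of all 12 arrays were fitted in R 4.3.3 with limma 3.58.1 (lmFit, eBayes), with 1 mean per strain and sex and a total of 11.99 degrees of freedom. The 6 comparisons were two-sided, with p-values adjusted over all probe sets of each. No array was dropped and no filter was applied. Every single gene's adjusted p is limma's. SDs are over 3 mice. The labels name separate mice but no batch, litter or scan date.

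The members, the gene lists, the tests and the naming rule were chosen with earlier results of these data known. Members called in any comparison were given for every array, and up to 6 called genes of each of 3 pathway lists (other complement genes, other coagulation genes and liver transcription factors) were named by the smallest adjusted p. The motif letters were loosened after a stricter set matched none of the 4 sequences shown. Genes given outside this rule and the order of mice for the terminal genes were chosen after their values were seen. Alternatives were quantile and loess normalization, only probe sets above the median mean, an intensity trend with a robust prior, the replicate number as a block, fits on only the groups of a comparison, and fits that left out 1 array at a time. The fit was tested on simulated data.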

Additional observations from a re-analysis of the deposited data

Results flagged for a closer look

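The strain difference of F2r in males minus that in females was -1.22 and passed the interaction test (adjusted p = 0.00486), so the strain difference differed between the sexes. The same test passed for Bcl6, at -2.73 (adjusted p = 0.00264). For Vsig4 all 3 KK males lay below the C57BL/6J males and all 3 KK females above the C57BL/6J females, and the difference of -0.94 between these strain differences did not pass the interaction test (adjusted p = 0.503).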

How the results depend on the processing

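No called difference of a single gene changed direction in any alternative: of 28, 15 kept their call throughout and 13 lost it in at least 1. With only the groups compared, Masp2 in males had an adjusted p of 0.0508, F13b in females 0.0838, and the sex differences of Mbl2 and C6 in KK 0.094 and 0.0564, and those of C8b and F7 in C57BL/6J 0.172 and 0.132; the other losses are given with the genes. In KK against C57BL/6J females, the count of 3 higher was 5 after quantile or loess normalization, with only bright probe sets, with a trend or with the replicate block, which each added Mbl1 and Masp1, and 2 to 5 without 1 array; the count of 3 lower was 1 to 3. In KK against C57BL/6J males, the count of 0 higher was 1 with the replicate block (C6) and 1 with only the groups compared (C9), and 0 throughout the left-out arrays; the count of 3 lower was 5 with only bright probe sets or the block, which added F7 and F11, and 2 to 5 without 1 array. Over both sexes the counts were 3 to 4 higher and 5 to 7 lower. In males against females of KK, the count of 1 higher was 2 after quantile or loess normalization (Hc and C6), 0 with only the groups compared and 0 to 1 without 1 array; the count of 3 lower was 5 after quantile normalization (Cfi and Kng1 added) and 1 to 5 without 1 array. In males against females of C57BL/6J, the count of 1 lower was 2 after quantile normalization, with only bright probe sets or with a trend (Mbl2 added) and 0 to 1 without 1 array; the count of 3 higher was 2 to 4. For the interaction, the count of 0 lower was 1, C6, after quantile or loess normalization, with only bright probe sets or with the replicate block, and 0 to 1 without 1 array; the count higher stayed 0. The causes were not tested. The replicate numbers were shared between groups only in the titles, so the replicate block does not stand for a known pairing. Deviations from group means correlated between -0.36 and 0.48 over the 18 same-numbered pairs, with a median of 0.11 and 10 over 0.1. Over the 36 different-numbered pairs they correlated between -0.51 and 0.48, with a median of -0.05 and 8 over 0.1. Whether same-numbered arrays shared a batch was not tested.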

Other observations

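Among 25 transcription factor and cytokine signalling genes of hepatocytes that were measured, 2 were higher and 3 lower in KK than in C57BL/6J males, and 3 were higher and 0 lower in KK than in C57BL/6J females. These were 20% and 12% of the list, where 5.15% and 6.5% of all probe sets were called either way. Bcl6, a repressor known to oppose STAT5 at sex-biased liver genes, had log2 values of 7.27, 7.85 and 6.92 in KK males and of 7.27, 7.32 and 7.56 in KK females. In C57BL/6J it had values of 9.03, 8.95 and 9.39 in males and of 6.76, 6.30 and 6.24 in females. Bcl6 was higher in males than in females of C57BL/6J by 2.69 (SE 0.21, adjusted p = 3.23e-05), while the difference in KK was -0.04 (adjusted p = 0.942). Its strain difference was -1.78 in males (adjusted p = 0.000339) and 0.95 in females (adjusted p = 0.0191). Esr1, the estrogen receptor gene, was lower in males by -1.33 in KK and by -1.33 in C57BL/6J (adjusted p = 0.000111 and 7.5e-05). Stat5b was lower in KK by -0.41 in males (adjusted p = 0.00935). Onecut1 and Onecut2, which encode factors of the HNF6 family, were higher in KK males by 1.58 and 0.46 (adjusted p = 0.0108 and 0.00575), and Foxa3 was lower in KK over both sexes by -0.53 (adjusted p = 0.00957).

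Marker lists of cell types were counted as well, where 5.15% of all probe sets were called either way in KK against C57BL/6J males. In KK against C57BL/6J males, limma called 2 lower of 10 Kupffer cell and macrophage markers (Clec4f and Csf1r), 1 higher and 1 lower of 10 stellate cell markers, 1 lower of 10 sinusoidal endothelial markers, 1 higher of 5 adipocyte markers, 1 higher of 4 platelet markers and 1 higher of 2 erythroid markers. Of 4 cholangiocyte, 7 neutrophil and 7 lymphocyte markers, limma called 0 in that comparison, with 1, 1 and 0 at an unadjusted p under 0.05. Of 8 hepatocyte markers it also called 0 there, with 3 at an unadjusted p under 0.05. Against C57BL/6J females, KK females had Tat called higher and Apoa1 lower (background 6.5% either way). Between the sexes of KK, Apoa1 was called higher and Ahsg lower in males (background 2.17% either way), and between those of C57BL/6J limma called 0 of the 8.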
